A study of Rattus norvegicus with 6 samples.

Results

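Elastin and microfibril genes were followed in cultured nucleus pulposus cells of the rat, which come from the soft centre of the intervertebral disc. The group holds 10 genes chosen by symbol, Eln, Fbn1, Fbn2, Fbln1, Fbln2, Fbln5, Efemp2, Mfap2, Mfap4 and Mfap5, out of 32623 genes in the deposited table. The donors were Sprague-Dawley males of 4 weeks, lumbar discs were taken, and the cells of both groups were at passage 3 to 5. In shBmal1 (3 libraries) the cells had carried a lentiviral hairpin RNA against the clock gene Bmal1 for 72 hours, and in shNC (3 libraries) a lentiviral negative control hairpin for the same time. Nothing in the labels says whether replicate libraries stem from different animals or culture dishes, and p-values therefore measure only the spread between these libraries, which may be technical. No untransduced cells were analysed here.

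An elastic fibre has a core of elastin laid down on a scaffold of microfibrils. Microfibrils are bead-like filaments built from fibrillins, with small microfibril-associated glycoproteins on their surface, and fibulins bring tropoelastin to them and recruit the lysyl oxidases that crosslink it. Elastic fibres lie between the collagen lamellae of the disc's outer ring and, more sparsely, in its core, and microfibrils also bind latent TGF-beta and BMP ligands. Bmal1 pairs with CLOCK on E-box elements of DNA to drive the circadian clock.

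RefSeq promoter windows of 300 bases, 250 before and 50 after a transcript start in the GRCr8 assembly, were found for 7 of the 10 genes. Those for Eln, Fbln1 and Mfap4 were not analysed here. A set of 3 is shown for the contrast within the group: the transcripts of Fbln5 and Mfap5 were lower in shBmal1, and that of Fbln2 did not pass the test. Each is written on the gene's own strand, and capitals mark the general E-box form CANNTG and the GC box GGGCGG or its complement CCGCCC. The windows are Fbln5 at chr6:126742657-126742956 (reverse strand), Mfap5 at chr4:157399669-157399968 (forward strand) and Fbln2 at chr4:125261409-125261708 (forward strand).
Fbln5: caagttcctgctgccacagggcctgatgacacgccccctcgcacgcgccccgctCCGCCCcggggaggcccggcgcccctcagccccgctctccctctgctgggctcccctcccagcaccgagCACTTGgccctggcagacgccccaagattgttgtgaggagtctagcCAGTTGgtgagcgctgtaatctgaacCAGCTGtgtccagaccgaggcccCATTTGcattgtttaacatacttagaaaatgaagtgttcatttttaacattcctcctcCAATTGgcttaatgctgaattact
Mfap5: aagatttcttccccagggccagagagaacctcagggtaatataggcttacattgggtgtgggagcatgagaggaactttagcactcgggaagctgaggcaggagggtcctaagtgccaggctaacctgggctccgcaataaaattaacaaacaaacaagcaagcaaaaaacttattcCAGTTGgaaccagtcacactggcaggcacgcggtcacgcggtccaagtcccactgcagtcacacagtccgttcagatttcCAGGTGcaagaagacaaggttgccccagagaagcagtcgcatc
Fbln2: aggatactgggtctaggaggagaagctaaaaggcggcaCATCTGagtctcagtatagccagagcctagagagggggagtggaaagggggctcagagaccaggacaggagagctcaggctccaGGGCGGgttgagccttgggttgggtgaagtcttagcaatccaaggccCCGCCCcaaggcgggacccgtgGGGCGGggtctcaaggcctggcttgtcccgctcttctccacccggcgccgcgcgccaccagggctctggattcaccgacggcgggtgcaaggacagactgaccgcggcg

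The Fbln5 window held 5 matches to CANNTG and 1 GC box, and that of Mfap5 held 2 matches to CANNTG and no GC box. That of Fbln2 held 1 match to CANNTG and 3 GC boxes. Of the windows not shown, those of Fbn1 and Efemp2, whose transcripts also fell, held 0 and 1 matches to CANNTG. Those of Fbn2 and Mfap2 held 0 and 1. None of the 7 windows held CACGTG, the E-box form that BMAL1 and CLOCK bind best, which 6.42% of 33469 rat promoter windows of the same length hold. CANNTG, which contains CACGTG, was present in 5 of the 7 windows against 72.1% of all windows, and GGGCGG in 4 of 7 against 33.1%. TATAAA was in none of the 7, against 14.2% of all windows. All searches covered both strands. The GC content was 70.7% for Fbn1, 69.3% for Fbn2, 71% for Efemp2, 67% for Mfap2, 64.7% for Fbln2, 58.3% for Fbln5 and 51.7% for Mfap5, against a median of 51.7% over all windows. These matches describe the letters of the windows alone.

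Depth differed between the groups: the total count over genes was 8773762 to 11679587 in shBmal1 libraries and 44043803 to 49783710 in shNC libraries, a 4.44-fold higher mean in shNC. The share of counts on mitochondrial ribosomal RNA was 0.722 to 1.31% in shBmal1 and 0.033 to 0.0602% in shNC. With counts thinned to the shallowest library, 5 of the 10 genes were called lower in shBmal1, Eln at a log2 fold change of −6.73. Any other part that either difference has in the results below was not tested. Bmal1 itself, listed as Arntl, had 2.16, 4.24 and 2.07 CPM in shBmal1, against 27.4, 29.7 and 31.7 CPM in shNC (log2 fold change −3.37 ± 0.26, SE; adjusted p = 1.17e-05, edgeR). CPM are counts scaled to library size and by TMM, which evens out differences in RNA makeup between libraries, and FPKM are the authors' values, which also divide by gene length. Genes were called at an adjusted p under 0.05 in edgeR's quasi-likelihood test over 14342 genes. That test called 71.3% of all genes, 35.3% lower and 36% higher in shBmal1, with a median log2 fold change of −0.01. In bulk RNA, fewer cells of a type and less RNA per cell cannot be told apart.

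Of the 10 elastin and microfibril genes, 8 had enough counts to be tested, and 5 of these fell in shBmal1: Eln, Fbn1, Fbln5, Mfap5 and Efemp2. The other 3, Fbn2, Fbln1 and Fbln2, did not pass the test, none rose, and Mfap2 and Mfap4 were too low to test. The 5 genes that fell stand against a background of 35.3% of all tested genes called lower. The groups did not overlap for these same 5 genes, all lower in shBmal1, against 39.1% of tested genes. The median log2 fold change of the 8 was −0.95, and the 5 that fell ran from −6.81 to −0.63 on that scale. The 5 calls held under each of the 16 other ways of processing the data, which included leaving out each library.

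**Figure D1:**
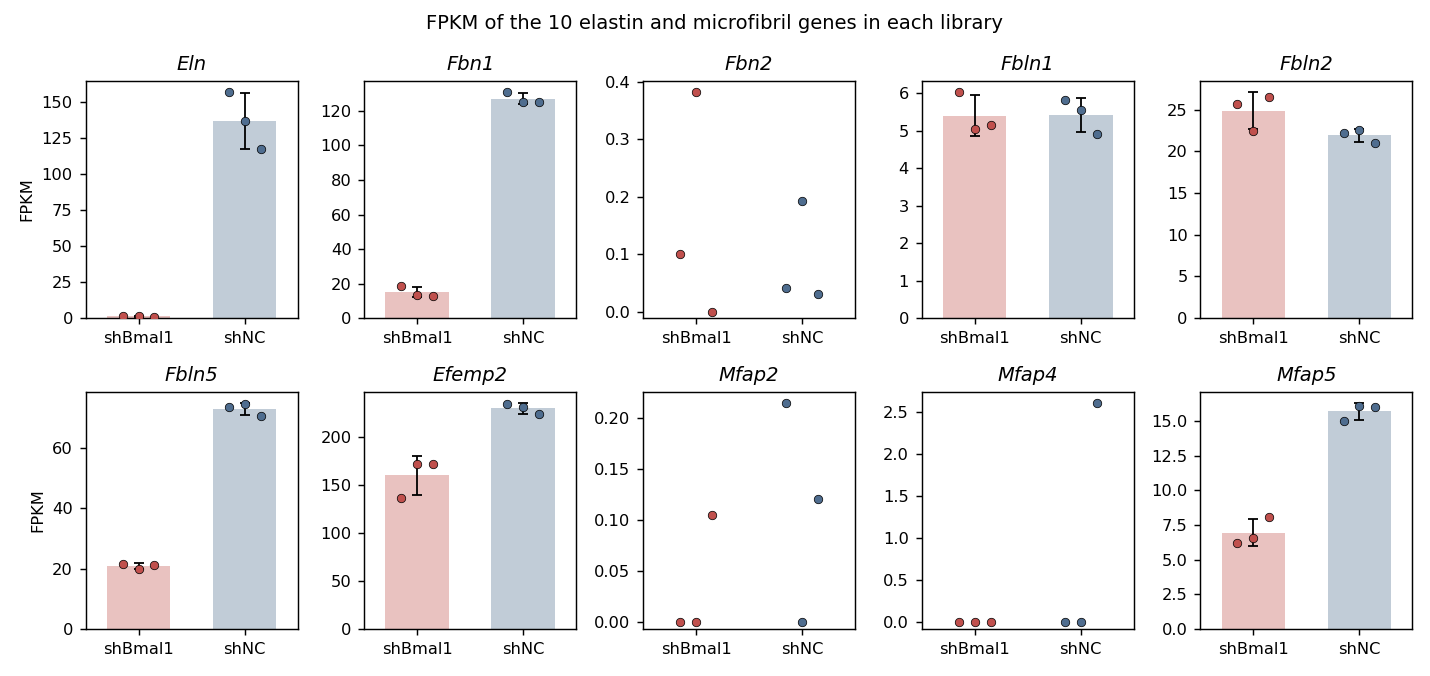
FPKM (vertical axis, from 0) of each gene in 3 shBmal1 libraries and 3 shNC libraries; points are libraries, bars are means and error bars are SD, with points alone where a library had no count. Eln averages 1.31 FPKM in shBmal1 against 136.6 FPKM in shNC, while Fbln1 and Fbln2 overlap between the groups.

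Eln encodes tropoelastin, the soluble precursor of the elastic core (ENSRNOG00000001469, protein-coding, chromosome 12, 24978483 to 25021863, forward strand; member coordinates are copied from the deposited table, with their build not given in the sources used here). Its reads numbered 52, 60 and 47 in shBmal1, against 27465, 24971 and 19066 in shNC. In FPKM this was 1.53, 1.34 and 1.07 in shBmal1, against 156, 136 and 117 in shNC. Every shBmal1 library lay far below every shNC library. Scaled counts averaged 4.80 ± 0.86 CPM in shBmal1 and 533 ± 81.9 CPM in shNC (SD, n = 3 each), so that 0.9% of the shNC level was left (log2 fold change −6.81 ± 0.17, SE; adjusted p = 5.46e-08, edgeR). Of the 14342 tested genes, 126 had a lower fitted fold change. By rank within a library, which does not depend on scaling, the FPKM of Eln exceeded that of 19.9 to 23.6% of tested genes in shBmal1 and of 96.5 to 97.6% in shNC.

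Fbn1 encodes fibrillin-1, the main structural protein of microfibrils (ENSRNOG00000007302, chromosome 3, 117569697 to 117766120, reverse strand). Its FPKM was 18.5, 13.6 and 13.1 in shBmal1, against 131, 125 and 125 in shNC. The shBmal1 libraries were all lower, and replicate 1 was the highest of them. Scaled counts averaged 150.3 ± 30.6 CPM in shBmal1 and 1365 ± 49.2 CPM in shNC (SD, n = 3 each), which is 9.09-fold higher in shNC (log2 fold change −3.18 ± 0.14, SE; adjusted p = 5.11e-07, edgeR). A pseudogene on the other strand overlaps Fbn1 by 160 bases and had at most 33 counts in any library, against at least 1561 for Fbn1.

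Fbn2 encodes fibrillin-2, the form known from developing tissue (ENSRNOG00000043219, chromosome 18, 53068495 to 53181503, reverse strand). Its reads numbered 8, 37 and 0 in shBmal1, against 16, 77 and 12 in shNC. Replicate 2 was the highest in both groups, and the groups overlapped. The log2 fold change was 0.77 with an SE of 1.22 (adjusted p = 0.591, edgeR), and it came to −0.91 without shBmal1 replicate 2 and to 1.99 without shNC replicate 2. In each library Fbn2 was the minor fibrillin, with 4.65, 22.2 and 0 reads per 1000 Fbn1 reads in shBmal1, against 0.253, 1.22 and 0.214 in shNC. A count of 0 in shBmal1 replicate 3 allows a level of up to 0.248 CPM, from a limit of 3 counts that covers counting error alone.

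Among the microfibril-associated glycoproteins, Mfap5 was the one with substantial counts. It encodes MAGP-2, which binds fibrillins (ENSRNOG00000015505, chromosome 4, 155313671 to 155336228, forward strand). Its FPKM was 6.19, 6.60 and 8.09 in shBmal1, against 15, 16.1 and 16.0 in shNC. Every shBmal1 library lay below every shNC library. Scaled counts averaged 7.65 ± 1.0 CPM in shBmal1 and 18.6 ± 0.56 CPM in shNC (SD, n = 3 each; log2 fold change −1.28 ± 0.15, SE; adjusted p = 0.000127, edgeR).

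Mfap2, which encodes the closely related MAGP-1 (ENSRNOG00000008257, chromosome 5, 159534202 to 159539750, forward strand), was barely counted in either group. It had 0, 0 and 2 reads in shBmal1, against 11, 0 and 6 in shNC. Over the groups this was 2 against 17 reads, a rate in shBmal1 of 0.522 times that in shNC with an exact 95% counting interval of 0.0585 to 2.2. That interval reaches from a fall to a rise and covers counting error alone, and Mfap2 was too low to test.

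Mfap4 encodes a fibrinogen-related glycoprotein of microfibrils (ENSRNOG00000002382, chromosome 10, 47765432 to 47768483, forward strand). It was listed at 0 reads in all 3 shBmal1 libraries and in shNC replicates 1 and 2, and at 190 reads, or 2.61 FPKM, in shNC replicate 3. One library of 6 thus holds all its reads. Mfap4 overlaps Mapk7, a kinase gene on the opposite strand, by 1804 bases, and Mapk7 was listed at 0, 302 and 0 reads in shBmal1, against 1105, 1199 and 1095 in shNC. With the use of strand in counting not stated, reads of the pair cannot be told apart, and no fold is given for Mfap4. Over the whole table, 18 genes had at least 50 reads in 1 library and 0 in the other 5.

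The fibulins divided into a pair that fell and a pair that did not pass the test. Fbln5 encodes fibulin-5, which tethers tropoelastin to microfibrils and cells (ENSRNOG00000050539, chromosome 6, 125644804 to 125723944, reverse strand). Its FPKM was 21.4, 19.8 and 21.2 in shBmal1, against 73.7, 74.6 and 70.8 in shNC. The libraries of each group lay close together, with coefficients of variation of 4.09% in shBmal1 and 3.53% in shNC for scaled counts. Scaled counts averaged 52.1 ± 2.13 CPM in shBmal1 and 197 ± 6.95 CPM in shNC (SD, n = 3 each; log2 fold change −1.92 ± 0.07, SE; adjusted p = 1.83e-07, edgeR).

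Efemp2 encodes fibulin-4, which is needed for elastin assembly and for lysyl oxidase activation in mice (ENSRNOG00000020587, chromosome 1, 220854403 to 220861420, forward strand). Its FPKM was 137, 172 and 172 in shBmal1, against 234, 232 and 224 in shNC. All shBmal1 libraries were lower, replicate 1 the most. The fall was the smallest of the 5, to 64.6% of the shNC level, with 254 ± 31.1 CPM in shBmal1 and 393 ± 13.7 CPM in shNC (SD, n = 3 each; log2 fold change −0.63 ± 0.09, SE; adjusted p = 0.000435, edgeR). Efemp2 had the highest FPKM of the 10 genes in every library, above 95.6% of tested genes even in shBmal1 replicate 1.

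Fbln1 and Fbln2 encode the larger fibulins, which bind fibronectin and proteoglycans. Fbln1 (ENSRNOG00000014137, chromosome 7, 126096793 to 126176468, forward strand) had 6.02, 5.04 and 5.15 FPKM in shBmal1, against 5.80, 5.54 and 4.90 FPKM in shNC. Fbln2 (ENSRNOG00000007338, chromosome 4, 122835436 to 122895121, forward strand) had 25.7, 22.4 and 26.6 FPKM in shBmal1, against 22.2, 22.6 and 21.0 FPKM in shNC. The groups overlapped for both genes. The log2 fold change was −0.11 ± 0.14 (SE; adjusted p = 0.489, edgeR) for Fbln1 and 0.07 ± 0.08 (SE; adjusted p = 0.455, edgeR) for Fbln2. Their direction depended on scaling. With FPKM rescaled to TPM, where the median of all genes was −0.35, they came to −0.45 and −0.30 and were called lower (adjusted p = 0.0142 and 0.0134, limma), and with scaling by library size alone, where that median was 0.15, Fbln2 came to 0.23 and was called higher (adjusted p = 0.0322, edgeR).

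**Figure D2:**
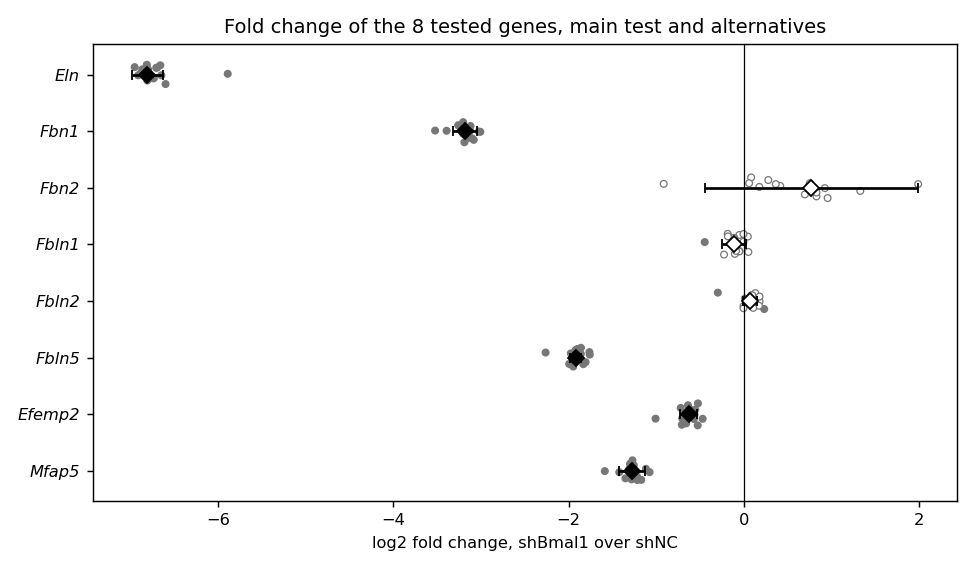
Log2 fold change (horizontal axis, shBmal1 over shNC) of the 8 tested genes; diamonds are the edgeR values with their SE, small circles the values under the other ways of processing, and filled symbols passed an adjusted p of 0.05. Eln, Fbn1, Fbln5, Efemp2 and Mfap5 stay left of 0 and filled throughout, Fbln1 and Fbln2 scatter around 0, and Fbn2 runs from −0.91 to 1.99.

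The order of levels per length differed between the groups. In shBmal1 the order by mean FPKM was Efemp2 (160.4), Fbln2 (24.9), Fbln5 (20.8), Fbn1 (15.1), Mfap5 (6.96), Fbln1 (5.40) and Eln (1.31), with no overlap of library ranges between neighbours. In shNC it was Efemp2 (229.9), Eln (136.6), Fbn1 (127), Fbln5 (73.0), Fbln2 (21.9), Mfap5 (15.7) and Fbln1 (5.41), where the ranges of Eln and Fbn1 overlapped and the other neighbours were separate. Fbn2, Mfap2 and Mfap4 were the lowest 3 in both groups and overlapped each other. Eln was thus the seventh of the genes by level in shBmal1 and the second in shNC.

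The 10 genes together summed to 235 ± 16.5 FPKM in shBmal1 and 611 ± 28.6 FPKM in shNC (SD, n = 3 each), 2.60-fold higher in shNC (exact two-sided permutation test p = 0.1, and no lower p is possible with 3 libraries in each group). On the log2 scale the difference was −1.38, and it came to −1.86 with TPM and to −2.14 with scaled counts, which do not divide by length. Efemp2 made up 68.1 ± 4.23% of this sum in shBmal1 and 37.7 ± 0.88% in shNC. The share of Eln was 0.565 ± 0.136% in shBmal1 and 22.3 ± 2.15% in shNC, and that of Fbn1 was 6.50 ± 1.79% in shBmal1 and 20.8 ± 0.58% in shNC. Fbln2 made up 10.6 ± 1.3% in shBmal1 and 3.59 ± 0.11% in shNC, although its own level did not pass the test. The share of Mfap5 overlapped between the groups, at 2.73 to 3.27% over shBmal1 libraries and 2.35 to 2.75% over shNC libraries.

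**Figure D3:**
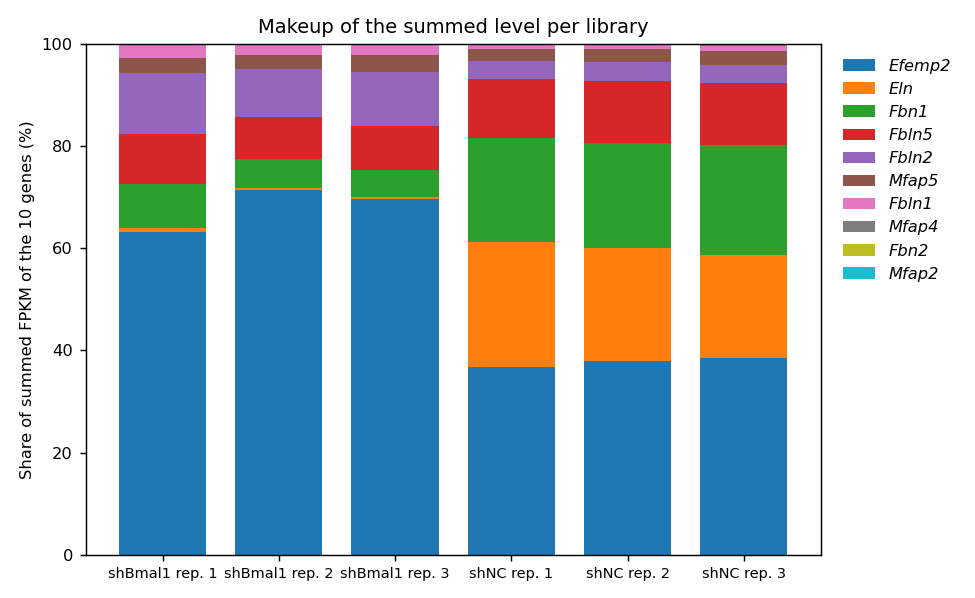
Share of each gene in the summed FPKM of the 10 genes (vertical axis, percent) in each shBmal1 and shNC library. Eln takes 0.433 to 0.705% in shBmal1 libraries and 20.2 to 24.5% in shNC libraries, and Efemp2 63.3 to 71.3% in shBmal1 and 36.7 to 38.5% in shNC.

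Ratios between members of one library do not depend on how libraries are scaled, and 3 of them were compared. The FPKM ratio of Eln to Fbn1 was 0.0824, 0.0986 and 0.0817 in shBmal1, against 1.20, 1.09 and 0.939 in shNC. Elastin transcripts were therefore lower relative to fibrillin-1 in all 3 shBmal1 libraries, by 3.61 on the log2 scale or 12.3-fold (means −3.52 ± 0.15 in shBmal1 and 0.10 ± 0.18 in shNC, SD, n = 3 each; exact two-sided permutation test p = 0.1, 0.15 adjusted over the 3 ratios). The ratio of Fbln5 to Efemp2 was 0.157, 0.115 and 0.123 in shBmal1, against 0.314, 0.322 and 0.317 in shNC, so that Fbln5 was lower relative to Efemp2 by 2.43-fold (exact p = 0.1, 0.15 adjusted). The ratio of Fbln2 to Fbln1 was 4.26, 4.44 and 5.16 in shBmal1, against 3.82, 4.08 and 4.29 in shNC, and these overlapped (exact p = 0.2, 0.2 adjusted). No ratio could pass 0.05 with 3 libraries a group.

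The profiles closest to that of Eln over the 6 libraries, by Euclidean distance of centred log2 CPM among 14341 other tested genes, were those of Dcun1d2 (distance 0.573), Wscd2 (0.772), Lnx1 (0.961), Apcdd1 (1.14) and Pyroxd2 (1.15). All 5 had no read in shBmal1, with 8.31, 5.59, 12.7, 4.34 and 4.23 CPM in shNC, whereas Eln kept a low level in each shBmal1 library. Log values of genes without reads rest on the 2 prior counts added to them, so these distances do too. The closest to Fbn1 were Col4a2, a basement membrane collagen gene (distance 0.111; log2 fold change −3.21), Scx, which encodes the tendon factor scleraxis (0.230; −3.18), and Lix1l (0.267; −3.25).

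Partners of these genes were read from 6 lists of 86 gene symbols, of which 82 were found and 67 tested. Together 19 rose and 39 fell, with a median log2 fold change of −0.58, against 36% higher, 35.3% lower and a median of −0.01 for all genes tested. None of the counts below was tested against other genes.

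Of 16 tested microfibril partners (18 listed), 9 fell, 6 rose and 1, Npnt, did not pass (log2 fold change −1.71, adjusted p = 0.109, edgeR). Emilin1, which encodes an elastin-binding glycoprotein, fell to 41.7 ± 6.78 CPM in shBmal1, against 301 ± 7.84 CPM in shNC (SD, n = 3 each). The latent TGF-beta binding protein genes Ltbp1 and Ltbp2 fell by 1.34 and 1.55 on the log2 scale, and Bgn, a small proteoglycan gene, by 0.99. Efemp1, which encodes fibulin-3, the close relative of fibulin-4, rose instead, with 18.9 ± 0.98 CPM in shBmal1 and 6.89 ± 0.97 CPM in shNC. Mfge8 (log2 fold change 0.67), Tgfbi (1.71), Emilin2 (1.46) and Vcan (0.48) also rose. Tgfbi lost its call without shNC replicate 1 or 2 (adjusted p = 0.05 and 0.0632, edgeR) and with a replicate block (0.0774). Emilin2 lost its call without any 1 of 5 libraries, the exception being shBmal1 replicate 3 (adjusted p = 0.0625 to 0.137, edgeR), and Vcan without shBmal1 replicate 1 or shNC replicate 1 (0.0631 and 0.0602). Vtn, the vitronectin gene, had 91 reads over shBmal1 and 0 over shNC, at least 121-fold higher against a limit of 3 counts over the group. It met the count filter, 10 counts in a library of median size or 0.359 CPM before TMM, through shBmal1 alone, which fixed its direction. Tgfbi was past the filter in 3 shBmal1 libraries and 2 shNC libraries. Fbln7, 1 of the 9 that fell, was past it in 2 shBmal1 libraries and 3 shNC libraries. The median of the list was −0.95, also with Vtn at its bound.

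Of 11 crosslinking and secretion genes, all tested, 8 fell, 2 rose and 1, Fkbp10 (−0.05), did not pass. Lox, the lysyl oxidase gene, had 2216 ± 85.6 CPM in shBmal1 and 3172 ± 133 CPM in shNC (log2 fold change −0.52 ± 0.06, SE; adjusted p = 8.52e-05, edgeR), and Loxl1, whose product binds fibulin-5, fell by 0.75. Bmp1, which encodes a protease that activates pro-lysyl oxidase, fell by 0.75, and Serpinh1, a collagen chaperone gene, fell to 1214 ± 69.5 CPM in shBmal1, against 4527 ± 114 CPM in shNC. Loxl2 had 966 ± 22.8 CPM in shBmal1 and 392 ± 14.7 CPM in shNC, and it rose, as did the copper pump gene Atp7a (0.92). The list median was −0.56.

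The fibrillin processing and ADAMTS list was lower without a rise: of 9 tested genes (13 listed, 11 found), 8 fell and Papln did not pass (−1.88, adjusted p = 0.0863, edgeR). Adamtsl3 had 33.3 ± 7.93 CPM in shBmal1 and 540 ± 18.0 CPM in shNC (log2 fold change −4.02 ± 0.17, SE; adjusted p = 4.56e-07, edgeR). Adamts10 and Adamtsl4, whose products bind fibrillin-1, fell by 2.21 and 1.49, and Pcsk6, a proprotein convertase gene, by 1.62. The list median was −1.62.

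Among elastolytic enzymes and their inhibitors 11 genes were tested, of which 7 rose, 3 fell and Timp2 (0.01) did not pass. Of the 7, Mmp9 and Slpi were each past the count filter in 3 shBmal1 libraries and 2 shNC libraries. The other 5 that rose were past it in every library of both groups. Ctsl, which encodes the lysosomal protease cathepsin L, had 1014 ± 31.1 CPM in shBmal1 and 436 ± 19.7 CPM in shNC, and Ctsk, the cathepsin K gene, 5.03 ± 0.70 CPM in shBmal1 and 2.24 ± 0.10 CPM in shNC. Mmp9, a gelatinase gene, rose by 3.15 and the inhibitor gene Timp1 by 1.61 on the log2 scale. Mmp2 (−1.89), Mmp14 (−1.86) and Timp3 (−2.78) fell. Calls of Ctsb (0.17) and Slpi (1.86) were lost without any 1 of 4 libraries (adjusted p = 0.0639 to 0.0934 and 0.0501 to 0.105, edgeR). With TPM 5 genes of the list were called higher and 5 lower, Ctsb (−0.20) and Timp2 (−0.37) being called lower (adjusted p = 0.0407 and 0.0456, limma) and Cst3, at 0.27 in the edgeR test, coming to −0.10. Of 19 listed genes, the elastases Mmp7 and Cela1 had no read, Elane and Mmp12 had 8 and 12 reads over shBmal1, and both had 0 over shNC.

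Of 13 receptor genes, 2 rose, 6 fell and 5 did not pass. Itgb5, an integrin subunit gene, had 444 ± 11.8 CPM in shBmal1 and 1312 ± 22.2 CPM in shNC (log2 fold change −1.56 ± 0.05, SE; adjusted p = 1.64e-07, edgeR). Gpc4, a glypican gene, fell by 2.38, Itga5 by 0.80 and Glb1, whose splice form is the elastin-binding protein, by 0.69. Itgb8 (2.64) and Itgb6 (2.09) rose, and Itgb6 lost its call without shBmal1 replicate 1 or 3 or shNC replicate 1 or 2 (adjusted p = 0.091, 0.0603, 0.0731 and 0.0631, edgeR) and with a replicate block (0.0715). The genes that did not pass were Neu1 (0.12), Lgals3 (−0.06), Itgb1 (0.11), Itga8 (0.72) and Itgb3 (3.48 ± 1.98 CPM in shBmal1 and 1.40 ± 0.29 CPM in shNC). Itgb3 was called higher without shBmal1 replicate 2 (adjusted p = 0.00589, edgeR) and with DESeq2 (adjusted p = 0.0228), and Itgb1 was called higher with DESeq2 and lower with TPM. The number of receptor genes that rose was 4 with DESeq2, 5 with thinned counts or library size alone, and 1 with TPM, with a replicate block, or without either shBmal1 replicate 1 or 3 or shNC replicate 1 or 2. Ctsa (−0.20), 1 of the 6 that fell, lost its call without any 1 shNC library (adjusted p = 0.0936 to 0.103, edgeR). It also lost it with a replicate block, thinned counts or library size alone (0.0676, 0.162 and 0.669, edgeR). The same held with DESeq2 (0.0994) and log2(FPKM + 1) (0.335, limma).

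Of the growth factors that microfibrils hold, 7 of 12 listed symbols were tested, 5 fell and 2 rose. Gdf8 and Mstn on that list name the same gene. The falls were those of Tgfb3 (log2 fold change −3.25), Bmp4 (−2.88), Tgfb2 (−2.01), Inhba, an activin subunit gene (−1.66), and Tgfb1 (−0.50). Bmp7 had 8.73 ± 1.9 CPM in shBmal1 and 0.292 ± 0.059 CPM in shNC (log2 fold change 4.88 ± 0.35, SE; adjusted p = 7.13e-06, edgeR), and Bmp2 rose by 0.64. Bmp7 was past the count filter in 3 shBmal1 libraries and 0 shNC libraries, which fixed its direction. With TPM, Bmp2 came to 0.25 and missed the threshold (adjusted p = 0.11, limma).

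**Figure D4:**
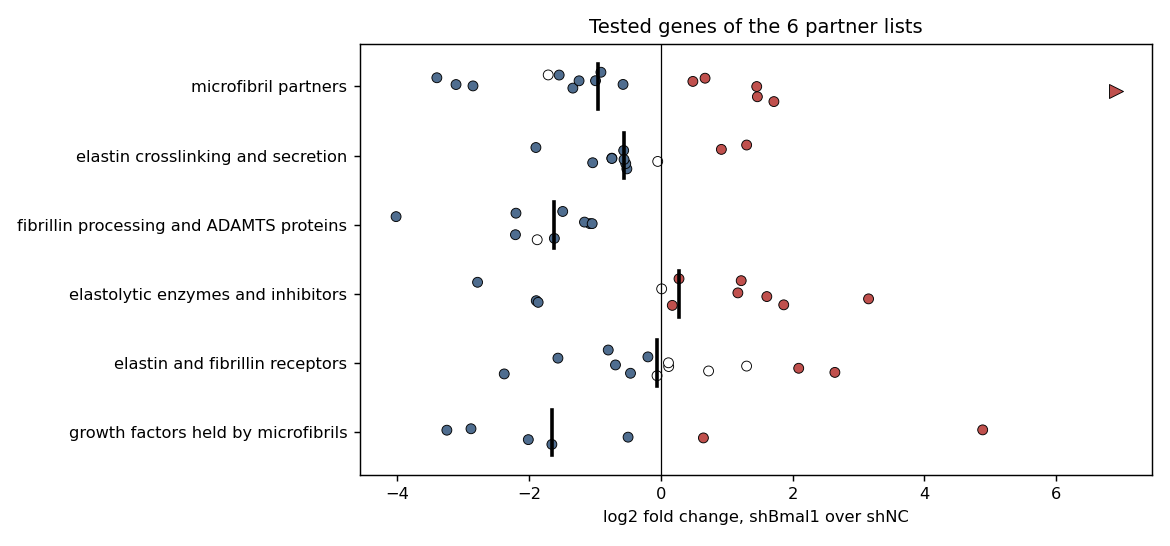
Log2 fold change (horizontal axis, shBmal1 over shNC) of the tested genes of 6 partner lists; red points passed the test as higher in shBmal1, blue as lower, white did not pass, vertical bars are list medians, and the triangle places Vtn at its lower bound. The fibrillin processing list has no red point and a median of −1.62.

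Markers of cell types were read from 5 further lists. Of all tested genes 35.3% were called lower and 36% higher, with a median log2 fold change of −0.01. The counts of these lists were not tested against other genes. Of 10 tested smooth muscle and myofibroblast markers (10 listed), 8 fell and 2, Des (2.93) and Myh11 (0.62), rose, and their summed level was 824 to 964 CPM in shBmal1 and 4484 to 4851 CPM in shNC. Acta2 fell to 92.0 ± 24.0 CPM in shBmal1, against 1649 ± 70.7 CPM in shNC, and Tagln to 693 ± 33.5 CPM in shBmal1, against 2589 ± 92.1 CPM in shNC. Myh11 lost its call without shBmal1 replicate 1 or any 1 shNC library (adjusted p = 0.0826 to 0.125, edgeR) and with a replicate block (0.113). Cnn1, 1 of the 8 that fell, was past the count filter in 1 shBmal1 library and 3 shNC libraries, which leaned it towards a fall. Of 10 tested annulus, tendon and fibroblast markers (12 listed), 9 fell, among them Col3a1 (−3.47) and Col12a1 (−4.79), and none rose. The median log2 fold change of the 10 was −2.73. Their sum was 10611 to 13655 CPM in shBmal1 and 89650.1 to 104019 CPM in shNC. Col1a1 alone had means of 10400 CPM in shBmal1 and 79599 CPM in shNC. Tnmd, which defines mature tendon cells, had no read. Of 11 tested nucleus pulposus markers (16 symbols listed), 3, Foxf1 (0.56), Ca3 (1.35) and Slc2a1 (0.40), rose and 4 fell, among them Acan (−4.30) and Pax1 (−2.63). T and Tbxt on that list name the same gene. The median log2 fold change of the 11 was −0.04. Their sums were 372 to 420 CPM in shBmal1 and 1442 to 1507 CPM in shNC. Acan and Pax1 had the largest parts of the shNC sum, with means of 648 and 527 CPM. Without shBmal1 replicate 2 the rises numbered 5, with Krt18 and Krt19 added (adjusted p = 0.00204 and 0.0448, edgeR). The notochordal markers Tbxt, Shh and Noto had no read in any library. Krt8, Col2a1, Krt18 and Krt19 had 79.8, 35.4, 1.67 and 0.877 CPM in shNC. How far the cells match their label was not tested. Endothelial markers summed to 8.28 to 13.9 CPM in shBmal1 and 9.58 to 11.6 CPM in shNC, with Esam lower (−2.13) and Tek (3.47), Vwf and Tie1 higher among 4 tested. Vwf and Tie1 were past the count filter in 3 shBmal1 libraries and 0 shNC libraries, which fixed their direction. Tek was past it in 3 shBmal1 libraries and 1 shNC library, which leaned it towards a rise. The count of these rises supports nothing. Macrophage and blood markers summed to 27.5 to 34.3 CPM in shBmal1 and 32.4 to 43.2 CPM in shNC, with Cd68 higher (2.81), Cd14 lower (−0.40) and Tyrobp at 0. Cd68 was past the count filter in 3 shBmal1 libraries and 2 shNC libraries. The call of Cd14 was lost without shBmal1 replicate 2 or shNC replicate 3 (adjusted p = 0.0873 and 0.156, edgeR). It was also lost with thinned counts or library size alone (0.0802 and 0.188, edgeR), with DESeq2 (0.0655) and with log2(FPKM + 1) (0.127, limma). The part of these cell types in the falls of the elastic fibre genes was not tested.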

How the data were processed

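Raw read counts per gene and library were deposited by the authors in one table, per the file headers. FPKM values in the same table, which also divide by gene length, were made by the authors, per the file headers. They tracked the counts: over 10394 genes the log2 quotient varied by an SD of 0.00641 or less. Genes without reads are deposited at an FPKM of 1e-04 and were taken as 0. HISAT2 2.0.4, StringTie 1.3.4d, cutadapt 1.9, DESeq2 and edgeR are named by the submitters' processing notes, with roles, build and annotation not given in the sources used here. Per the labels' protocols, poly(A) RNA was taken up on poly-T beads; that text also mentions an adipose source, and the cell labels were followed.

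Groups and replicate numbers came from the sample titles. Low genes were removed with filterByExpr at a count of 10 and a total of 15, TMM factors were applied, and genes were tested with edgeR 4.0.16 (R 4.3.3), without a replicate block, with Benjamini-Hochberg adjustment over 14342 genes. SEs come from the F statistic. Total counts of 8773762 to 49783710 per library set the precision: 3 counts equal 0.245 to 0.323 CPM in shBmal1 and 0.0637 to 0.0712 CPM in shNC. TPM were rescaled from FPKM, and alternatives used limma 3.58.1 on log2(value + 1) or log2(FPKM + 0.1), and DESeq2 1.42.0. Replicates differed by more than counting error in every pair (chi-square of 10.8 to 23.5 for each degree of freedom). Ratios of Fbn2 to Fbn1 and of Mfap5 to Mfap2 were not tested because of 0 counts.

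The members and lists were chosen with earlier results of these data known. Named genes are all members, Arntl, up to 4 called genes with the smallest p per direction and partner list, 2 per marker list, and the profiles closest to Eln (5) and Fbn1 (3). Uncharacterised or clone-based symbols were left out of the last. Mapk7, Tgfb1, Emilin2, Vcan, Fbln7, Ctsb, Slpi, Cst3 and Ctsa were named after their values were seen. So were Cnn1, Col1a1, Col2a1, Krt8, Krt18, Krt19 and the other markers that rose. The genes with no or few reads and the partner genes that did not pass were also named then.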

Additional observations from a re-analysis of the deposited data

How the results depend on the processing

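The calls of Eln, Fbn1, Fbln5, Efemp2 and Mfap5 as lower, and of Arntl, held under all 16 alternatives. Log2 fold changes ran from −6.95 to −5.89 for Eln, −3.52 to −3.01 for Fbn1, −2.26 to −1.76 for Fbln5, −1.01 to −0.47 for Efemp2 and −1.59 to −1.08 for Mfap5. Fbln1 came to 0.045 with counts thinned to the shallowest library and to 0.051 with scaling by library size alone. Fbln2 came to −0.30 with TPM and to −0.0038 without the filter on low counts, and leaving out 1 library gave −0.0039 to 0.11. Leaving out 1 library gave −0.91 to 1.99 for Fbn2, which was too low to test after thinning. With library size alone 1 member, Fbln2, was called higher, against 0 in the test reported. The log2 difference of the summed level was −1.38 with FPKM, −1.86 with TPM and −2.14 with scaled counts. The cause of these shifts was not tested. With TPM 4065 genes were called higher and 6681 lower, 37.8% of calls being higher against 50.5% in the test reported.

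Whether replicate numbers pair the samples is not stated in the labels. Deviations from the group means correlated at −0.0705, −0.0026 and 0.0203 in same-numbered libraries. In differently numbered ones they correlated at −0.0831 to 0.0815. The same-numbered values lay within the range of the others, so they show no sign of a shared replicate effect. Such values cannot settle the pairing, because paired libraries without a shared effect would look the same. With the number as a replicate block, 5 members were called lower (Eln at −6.80), and 9415 genes in all against 10233. Low counts limit Fbn2 and Mfap2, whose reads in a shBmal1 library numbered 37 at most. Fbn2 also varied within shNC, with 16, 77 and 12 reads. Mfap4 had 0 reads in shNC replicates 1 and 2 as well, although these libraries were deep.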
